A study of Mus musculus with 14 samples.

Results

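Immunoprecipitated RNA (IP) was compared with total brainstem RNA taken before the immunoprecipitation (pre-IP) in the 4 mice of the study that had been infused with mutant human tau, animals B, C, L and M. The members were chosen from the labels by treatment and fraction and were paired by the letter of the animal, which gave 4 tau IP and 4 tau pre-IP libraries, 8 of the 14 libraries of the study. The other 6 libraries came from 3 animals (H, I and K) infused with enhanced yellow fluorescent protein (EYFP) and are given only where they show how the tau animals differ. All 7 animals had the genotype TH-Cre;Slc6a2-eGFP/Rpl10a on a C57Bl/6 background and were infused in the locus coeruleus at an age of 2 to 3 months, with human tau of the P364S mutant form or with EYFP. Whether either infused construct depended on Cre is not given in the sources used here. The letters name separate animals, so the spread between them is biological as well as technical.

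The locus coeruleus is a small, bilateral nucleus of the pons whose neurons make noradrenaline and project to most of the brain. In the Slc6a2-eGFP/Rpl10a line the promoter of the noradrenaline transporter gene drives a ribosomal protein fused to green fluorescent protein, so ribosomes of noradrenergic cells, together with the RNA on them, can be pulled out of a homogenate with an antibody. The tag is set by cell type and not by place: noradrenergic neurons outside the locus coeruleus use the same promoter. Noradrenaline is made from tyrosine by the enzymes encoded by Th, Ddc and Dbh, loaded into vesicles by the product of Slc18a2 and taken back up by that of Slc6a2. The transcription factor encoded by Phox2a helps to set this identity, and galanin (Gal) is a peptide that many locus coeruleus neurons release with noradrenaline.

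The 8 libraries held 46801702 to 62043336 counts assigned to genes. Levels are given as CPM, the gene's counts as parts per 1000000 of the library after scaling by the trimmed mean of M-values (TMM). A count of 3, taken as the limit of detection, corresponded to 0.0484 to 0.0641 CPM before scaling and covers counting error only, as copies made by amplification could not be told from separate molecules. The IP of animal B stood apart: it had the lowest RNA concentration (0.1 ng per microlitre against 0.2 to 0.8 in the other tau IP samples), the fewest detected genes (20813 against at least 24075) and the widest spread of per-gene differences from its own pre-IP (SD 1.52 on the log2 scale against 0.841 to 0.901). Animal M went against its label of female: its libraries held 674 and 1153 counts of Y-linked genes and 0 and 21 counts of Xist in pre-IP and IP. The libraries of B and L had 1096 to 2664 Y-linked counts and 0 of Xist. The pre-IP and IP of C had 4 and 0 Y-linked counts and 44 and 16 of Xist. The IP of M thus held counts of both kinds, unlike its own pre-IP, and the cause was not tested. Where leaving out B or M moved a count of 2 or more calls in a gene list by over 1.5 times, the count without that animal is given beside it. The tau construct was present in all 8 libraries, with 126, 66.3, 85.4 and 190.2 CPM in the pre-IP of B, C, L and M and 986, 378, 136 and 197 CPM in the IP. Its log2 fold change of 1.53 (SE 0.48) did not pass the threshold in edgeR (adjusted p 0.0544), and the groups overlapped, although the construct (hTauP364S) was higher in the IP of 4 of 4 animals. The call depended on the setting. The construct passed in edgeR without the replicate block (adjusted p 0.0442), with no filter (0.00477), with a mean of at least 50 counts (0.0374), with all 14 libraries (0.0228) and without M (0.0207), and it passed by DESeq2's Wald test (0.0455) and voom (0.0175). It did not pass in edgeR with DESeq2 size factors (0.0501), library totals (0.068), the GC correction (0.0727) or without B, C or L (0.0809 to 0.198). The EYFP libraries also held counts of the construct, 2 to 18 in those of H and I. The pre-IP and IP of EYFP animal K held 408 and 398 (7.44 and 6.55 CPM before scaling), and their origin was not tested.

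Promoter sequences are shown for Dbh and Th because their products make noradrenaline and both genes were markers that rose in the IP. The 250 bases before the RefSeq start are printed 5′ to 3′ on the gene's strand, from GRCm38.p6. Dbh lies on the plus strand (chr2:27165257-27165506) and Th on the minus strand (chr7:142899996-142900245). Capitals mark ATTA, the core that homeodomain factors such as the Phox2 proteins recognise, on either strand in Dbh, and TGACGTCA, the cAMP response element, in Th.
Dbh: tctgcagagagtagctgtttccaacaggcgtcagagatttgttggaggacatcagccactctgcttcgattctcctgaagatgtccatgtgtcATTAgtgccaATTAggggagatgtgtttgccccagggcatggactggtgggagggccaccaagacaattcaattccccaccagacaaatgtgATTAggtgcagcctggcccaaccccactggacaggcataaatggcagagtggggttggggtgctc
Th: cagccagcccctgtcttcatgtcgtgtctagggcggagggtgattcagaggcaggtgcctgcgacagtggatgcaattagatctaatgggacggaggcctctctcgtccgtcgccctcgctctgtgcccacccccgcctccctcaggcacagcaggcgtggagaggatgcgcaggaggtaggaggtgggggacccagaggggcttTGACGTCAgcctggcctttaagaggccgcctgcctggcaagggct
Dbh held 3 matches to ATTA, and Th held 1 match to TGACGTCA, from 45 to 38 bases before its start. Of the 24 genes of the noradrenergic lists that were called higher in IP, 18 had a promoter in the table. Both strands of their 250 bases were searched. TGACGTCA was found in 2 of these 18 (11.1%; Th and Chgb), against 2.76% of the promoters of all genes tested and 1.77% of all promoters in the table. A longer motif of paired homeodomain sites was in 0 of the 18 (0%), against 0.289% of the promoters of genes tested. The shorter ATTA, which Th also holds, was added after its values were seen. It was in 9 of the 18 (50%), against 45.4% and 58.5%. The AP-2 palindrome GCCNNNGGC was in 2 of the 18 (11.1%), against 22.8% of those of genes tested. These matches describe letters in a window and not binding.

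The markers of noradrenergic neurons had far higher levels in the IP than in the pre-IP of every tau animal. For Dbh, dopamine beta-hydroxylase, the pre-IP libraries of B, C, L and M had 10.8, 8.13, 12.6 and 15.7 CPM and the IP libraries 1516, 937, 697 and 130.4 CPM. Every IP library was above every pre-IP library, and the IP of M was the lowest of the 4. Such a separation of the 8 libraries was found for 28.3% of all genes tested. The rise of Dbh was 5.80 in log2 units (SE 0.72, edgeR adjusted p 0.00375). Th, tyrosine hydroxylase, which catalyses the rate-limiting step of catecholamine synthesis, had 79.7, 70.8, 64.4 and 53.3 CPM in pre-IP and 1509, 763, 596 and 180 CPM in IP. The groups did not overlap, and the rise of 3.15 (SE 0.37, edgeR adjusted p 0.00332) was smaller than that of Dbh from a pre-IP level that was higher. Each IP was compared with the pre-IP paired with it by the letter of the animal. The rise thus compares fractions of the same animal and measures neither cell number nor RNA per cell. What set the size of the rise was not tested.

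Both transporters of the noradrenergic synapse were also higher in the IP of each animal. Slc6a2, the noradrenaline transporter whose promoter drives the tag, had 5.07, 5.30, 6.39 and 8.73 CPM in the pre-IP of B, C, L and M and 720.4, 378, 281 and 54.6 CPM in the IP. It rose by 5.43 (SE 0.74, edgeR adjusted p 0.00414) with no overlap. Slc18a2, the vesicular monoamine transporter, had 23.2, 22.6, 15.3 and 39.8 CPM in pre-IP and 533, 286, 259.7 and 119 CPM in IP. Its rise was 3.49 (SE 0.47, edgeR adjusted p 0.00403), again in 4 of 4 animals. Animal M had the highest pre-IP level and the lowest IP level of both genes.

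The peptide and the transcription factor of the marker set were higher as well. Gal had 28.1, 24.7, 25.3 and 19.6 CPM in the pre-IP of B, C, L and M and 1383, 542, 461 and 125 CPM in the IP, a rise of 4.23 (SE 0.44, edgeR adjusted p 0.00326). Phox2a was close to the limit of detection in pre-IP, with 0.206, 0.301, 0.338 and 0.502 CPM, and had 35.1, 7.53, 18.8 and 6.30 CPM in IP. Phox2a rose by 5.27 (SE 0.58, edgeR adjusted p 0.00326), and neither gene overlapped between fractions. Per kilobase of gene length, the mean IP level was highest for Gal (797 CPM per kb), followed by Th (322), Dbh (305), Slc18a2 (57.3), Slc6a2 (56.98) and Phox2a (8.32). The means of Gal and Th, of Th and Dbh, and of the transporters differed by no more than the SD over the 4 animals. Dbh lay above Slc18a2, and Slc6a2 above Phox2a, by more than the SD of either. This SD holds the spread in enrichment between animals, which the markers share. The order within each animal was not compared, so genes within the SD are not shown to be equal. With any 1 animal left out, Dbh, Th, Slc6a2, Slc18a2, Gal and Phox2a were still called (edgeR adjusted p 0.00113 to 0.0435, highest without L).

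**Figure D1:**
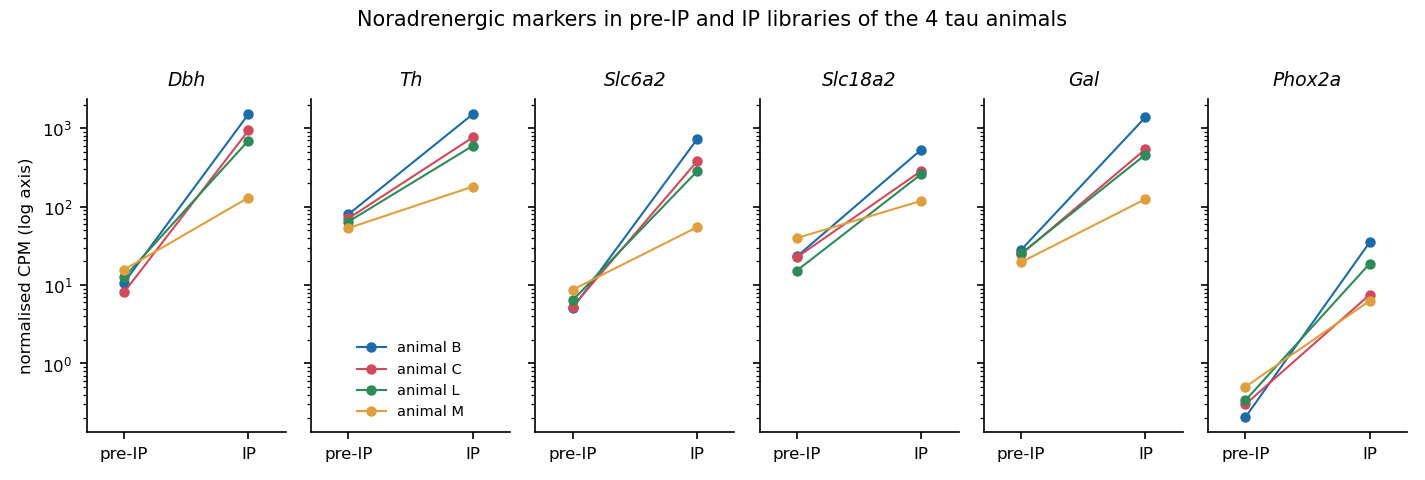
Level of the 6 noradrenergic markers (normalised CPM, log axis) in the pre-IP and IP library of each tau animal, with a line joining the libraries of an animal. All 24 lines rise, and animal M has the shallowest line for Dbh, Th, Slc6a2, Slc18a2, Gal and Phox2a.

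The size of the enrichment differed between the animals. The mean over the 6 markers of the log2 ratio of IP to pre-IP CPM (prior count 2) was 5.97 in B, 4.84 in C, 4.73 in L and 2.54 in M, 4.52 ± 1.43 on average (SD, n = 4). For animals B and C, with library numbers up to 11, the mean was 5.404, and for L and M, with numbers of 18 and above, it was 3.63. An exact two-sided permutation test gave p = 0.333, the smallest that 2 animals against 2 allow, so it cannot decide whether these pairs differ. In the EYFP animals the same mean was 1.11 in H, 1.16 in I and 0.908 in K, below every tau animal. The catecholamine genes together made up 0.104% to 0.110% of the counts in tau pre-IP libraries and 0.668%, 0.436%, 0.377% and 0.169% in the IP libraries of B, C, L and M. The tau animals thus had similar pre-IP shares and differed in the IP.

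Across all genes, 4387 of 18949 tested (23.2%) had an edgeR adjusted p under 0.05, 2030 (10.7%) higher and 2357 (12.4%) lower in IP. Of the called genes, 2002 were higher and 2345 were lower in all 4 animals. Most changes were modest: the median log2 fold change was 0.83 among genes called higher and -0.81 among those called lower, and it was -0.08 over all genes. At a log2 fold change of 1 the directions were alike, with 677 called higher over 1 and 679 called lower under -1. Larger changes were more often rises. Of the genes called higher, 127 had a log2 fold change over 2 and 52 over 3, whereas 45 of those called lower were under -2 and 27 under -3. Without animal C the count of calls was 1658 and without L it was 1425, while it was 5013 without B and 3048 without M. With a correction for the GC content of transcripts, added after the data had been seen, 1902 genes were called higher and 1454 lower, so that 56.7% of calls were rises against 46.3% without it.

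**Figure D2:**
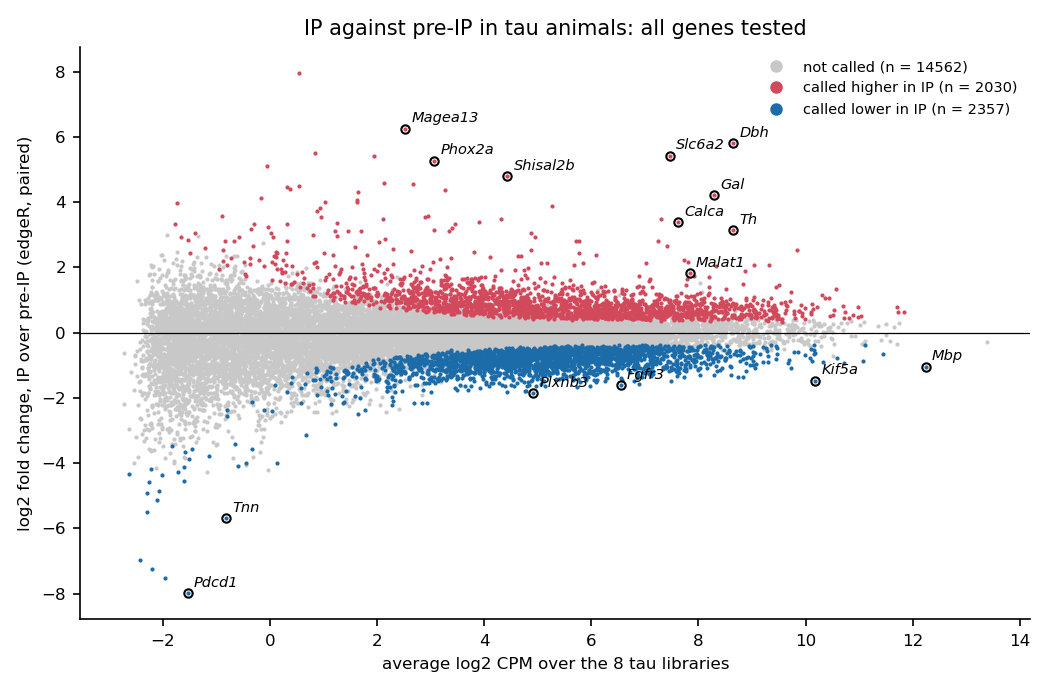
Log2 fold change of IP over pre-IP in tau animals (edgeR, paired by animal) against average log2 CPM, with 1 point for each of the 18949 genes tested, red if called higher and blue if called lower. The labelled noradrenergic genes lie far above the band of other genes, and the fitted value of Pdcd1, which had 0 counts in every tau IP library, is no measure of its size.

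A stricter test asked which genes changed by more than 2-fold (glmTreat in edgeR, a log2 fold change of 1). It called 15 genes higher (0.0792% of those tested) and 0 lower, with 758 of either direction at an unadjusted p under 0.05. The genes were Apol10a, Magea13, Phox2a, Shisal2b, Gal, Pla2g4d, Yeats2, Hsp90aa1, Rsrc2, Ddx46, Mphosph8 and the immunoglobulin genes Ighv1-72, Ighv1-74, Ighg3 and Ighg2b. Dbh (glmTreat adjusted p 0.0658) and Th (0.0808) did not pass it. Yeats2, a reader of acylated histones, had 11.2 to 13.5 CPM in the 4 pre-IP libraries and 47.2 to 64.5 CPM in the 4 IP libraries. Ddx46, an RNA helicase of splicing, had 8.18 to 14.5 CPM and 31.5 to 55.9 CPM. The EYFP animals had log2 fold changes of 1.61 for Yeats2 and 1.72 for Ddx46, beside 2.13 and 1.92 in tau animals.

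Beyond the markers, the 15 largest rises among well expressed genes (average log2 CPM of at least 2) held several genes outside catecholamine synthesis. Magea13, of the melanoma antigen family, had 0.124, 0.0752, 0.254 and 0.0837 CPM in the pre-IP of B, C, L and M and 16.3, 15.8, 12.04 and 2.55 CPM in the IP, a rise of 6.26 (SE 0.47, edgeR adjusted p 0.00316). Shisal2b, a Shisa-like gene, had 1.15, 1.28, 1.25 and 0.837 CPM in pre-IP and 99.3, 33.9, 32.7 and 8.40 CPM in IP, a rise of 4.79 (SE 0.46, edgeR adjusted p 0.00326). Neither gene overlapped between fractions, and animal M again had the lowest IP level. The remaining rises of this set, for Ighv1-72, Myom2, Adgre1, Nr4a3, Prlh, Ovgp1, Calca and Calcr, lay between 3.38 and 4.57. Without L, Myom2, Nr4a3 and Calca were not called (edgeR adjusted p 0.061, 0.0555 and 0.0506). Prlh encodes prolactin-releasing peptide, which noradrenergic neurons of the caudal medulla make. Adgre1 encodes F4/80, a macrophage surface protein: it rose by 3.90 (SE 0.54, edgeR adjusted p 0.00441), whereas of 14 tested genes of microglia and macrophages 0 were called higher and 3 lower.

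With no limit on level, Apol10a was among the 3 largest rises. It had 2 counts in the pre-IP of C, under the limit of detection, and 0 in the other 3, and it had 5.06, 2.99, 3.202 and 0.544 CPM in the IP of B, C, L and M, so that no fold is given.

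Of the 12 genes of catecholamine synthesis and storage, 9 were called higher and 0 lower (background 10.7% higher), with a median log2 fold change of 2.55 against -0.08 over all genes tested. Besides Dbh, Th, Slc6a2 and Slc18a2 these were Ddc (aromatic amino acid decarboxylase, 1.74), Gch1 (which makes the cofactor of tyrosine hydroxylase, 2.44), Cyb561 (which passes electrons to dopamine beta-hydroxylase in vesicles, 1.89), Maoa (monoamine oxidase A, 2.66) and Pnmt (which turns noradrenaline into adrenaline, 2.97). Maoa had 41.4, 45.2, 30.7 and 40.3 CPM in the pre-IP of B, C, L and M and 613, 296, 258.7 and 76.2 CPM in the IP. Maob, monoamine oxidase B, did not pass, with a log2 fold change of 0.28, and neither did Qdpr, which regenerates the cofactor, at 0.36 (edgeR adjusted p 0.0541). Pnmt was at the limit of detection in the pre-IP of C and reached 13.5 CPM in the IP of B against 1.21 to 2.02 CPM in the other 3. Without animal L, 4 of the 12 were called, and without C 7 were.

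Of 11 tested transcription factors of the noradrenergic lineage, 3 were called higher and 0 lower (background 10.7% and 12.4%), with a median of 0.37. Next to Phox2a these included Tfap2b, which rose by 1.66 (SE 0.27, edgeR adjusted p 0.00632). En1, a midbrain and hindbrain homeobox gene, had a value of 0.71 (edgeR adjusted p 0.0718), and Gata3 had -1.07 (edgeR adjusted p 0.165).

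Among 10 neuropeptide and granin genes linked to the locus coeruleus, 4 were called higher and 1 lower (background 10.7% and 12.4%). The median was 0.28. Calca, which encodes calcitonin and calcitonin gene-related peptide, had 28.4, 22.3, 26.3 and 36.2 CPM in the pre-IP of B, C, L and M and 805, 304, 308 and 90.1 CPM in the IP, a rise of 3.39 (SE 0.53, edgeR adjusted p 0.00561). Npy (neuropeptide Y) and Chgb (a granule protein) rose by 0.73 and 0.67. Vgf, a secreted neuronal peptide precursor, fell by 0.83 (SE 0.12, edgeR adjusted p 0.00531). Without B, without C and without L, 2 of the 10 were called higher, and without L Calca had an edgeR adjusted p of 0.0506. The related Calcb had -0.09. Among 14 peptide genes of other neurons 1 was called higher, Nmb (neuromedin B, 1.06), and 0 lower, with a median of 0.01. Without C, L or M 0 of these were called.

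Of 20 receptor genes linked to the locus coeruleus, 8 were called higher and 2 lower (background 10.7% and 12.4%), with a median of 0.22. The rises were those of Calcr (calcitonin receptor, 3.38), Gabre and Gabrq (epsilon and theta subunits of GABA-A receptors, 2.51 and 1.45), Hcrtr1 (orexin receptor 1, 2.39), Chrna6 and Chrnb3 (nicotinic receptor subunits, 2.35 and 2.17), Npr3 (natriuretic peptide receptor, 1.94) and Adra2a (the noradrenergic autoreceptor, 1.13). Hcrtr1 had 16.5, 13.98, 20.2 and 24.6 CPM in the pre-IP of B, C, L and M and 243, 108, 102 and 29.7 CPM in the IP. The groups did not overlap, but the IP of M was only slightly above its own pre-IP. Crhr1, the receptor of corticotropin-releasing hormone, fell by 1.22 (SE 0.19, edgeR adjusted p 0.00559), and Adra1b, an alpha-1 receptor, fell by 1.16 (SE 0.18, edgeR adjusted p 0.00538). The orexin receptor Hcrtr2 had -0.53 (edgeR adjusted p 0.451) and the mu opioid receptor Oprm1 0.28 (edgeR adjusted p 0.683). Without L, 4 of the 20 were called higher, and without C 5 were, Gabre and Gabrq not among them, while without B 4 were called lower.

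Most genes of other neurons did not pass the test, and most of those that passed were lower. Over all genes tested 10.7% were called higher and 12.4% lower. The glutamate, dopaminergic and cerebellar lists, with 1 fall each, were near that share. Of 6 serotonergic genes 0 were called higher and 3 lower, with a median of -1.06: Htr1a (a serotonin receptor) fell by 1.52, Gata2 by 1.12 and Slc6a4 (the serotonin transporter) by 1.01, while Tph2 (serotonin synthesis) had -0.08. Of 8 GABA and glycine genes 3 fell, among them Slc6a5 (a glycine transporter, -0.64), while Gad1 and Gad2 (GABA synthesis) had -0.34 and 0.02. Of 7 glutamate neuron genes 1 fell, Slc17a7 (a vesicular glutamate transporter, -1.12), and 1 rose. Chat and Slc18a3, of acetylcholine synthesis and storage, fell by 0.63 and 0.87 among 5 cholinergic genes. The highest value of that list was 0.66, not called. Its summed level did not fall, with 316 to 460 CPM in pre-IP and 365 to 898 CPM in IP. Of 7 dopaminergic genes Slc6a3 (the dopamine transporter) fell by 1.21, and of 10 cerebellar genes Cbln3 fell by 0.99. Leaving out animals changed most of these counts. Of the serotonergic genes 1 was called lower without C and without L. Of the GABA and glycine genes 1 was called lower without C, without M and without the replicate block. Of the cholinergic genes 0 were called lower without L and without the block, and 1 without C, without M, with no filter and with the GC correction. In that list 1 was called higher without M, with no filter, with the GC correction and by DESeq2's Wald test. Of the cerebellar genes 0 were called lower without the block and 3 with the GC correction, and 1 was called higher without B. Of the dopaminergic genes 2 were called lower without M, and of the glutamate genes 2 without B.

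Many glial genes were lower in the IP. Of 15 oligodendrocyte genes 9 fell and 0 rose, with a median of -0.67, where 12.4% of all genes tested were called lower. Mbp, myelin basic protein, had 6864, 5495, 5680 and 7895 CPM in the pre-IP of B, C, L and M and 2058, 3027, 2898 and 5490 CPM in the IP. The groups did not overlap, and Mbp fell by 1.04 (SE 0.19, edgeR adjusted p 0.00823). Myrf and Sox10, transcription factors of this lineage, fell by 1.64 and 1.38. None of the 15 was at 0: their summed level was 10800 to 14920 CPM in pre-IP and 4763 to 11590 CPM in IP libraries. Without C 5 of the 15 were called lower, without L 4, with the GC correction 5 and without the replicate block 4, and 1 was called higher without B.

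Of 14 astrocyte genes 8 fell and 1 rose, with a median of -0.62 and a summed level of 3222 to 4229 CPM in pre-IP and 1768 to 3110 CPM in IP. Fgfr3 (a fibroblast growth factor receptor, -1.61), Atp1b2 (a sodium pump subunit, -1.15) and Sox9 (-1.01) fell most, and Slc1a2, a glutamate transporter, rose by 0.77. Aqp4, the water channel of astrocyte endfeet, had -0.26. Without C 4 and without L 4 of the 14 were called lower, and without the replicate block and with the GC correction 5, while 0 were called higher without C, L or M or with library totals. Of 8 genes of oligodendrocyte precursors 4 fell, led by Neu4 (-1.33) and Gpr17 (-1.23), against 2 without C and 1 without L. Of the 14 genes of microglia and macrophages 3 fell, Tmem119, Csf1r and Cx3cr1 (-1.02, -0.99 and -0.84), but their summed levels overlapped, with 363 to 507 CPM in pre-IP and 283 to 454 CPM in IP.

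Vascular and meningeal genes had calls in both directions, where 10.7% of all genes tested were called higher and 12.4% lower. The endothelial, ependymal, Schwann cell and erythroid lists, with 1 call each, are not read as differing from these shares. Of 12 endothelial genes 1 rose (Egfl7, 0.77) and 0 fell, and Cldn5, a tight junction gene, had -0.40. Of 10 mural cell genes 3 fell, Pdgfrb (-1.59), Cspg4 (-0.96) and Acta2 (-0.63). Of 11 genes of meningeal fibroblasts 4 fell and 1, Ogn (1.07), rose. Tnn, tenascin N, had 1.05 ± 0.28 CPM in pre-IP (SD, n = 4) and 0.0207 ± 0.0240 CPM in IP, at or under the limit of detection, and passed the test (edgeR adjusted p 0.00625). Of 9 ependymal and choroid plexus genes Foxj1 fell (-1.22), of 6 Schwann cell genes Pmp22 (-0.80) and of 5 erythroid genes Alas2 (-0.78), with no rise in these 3 lists. Without L, Egfl7, Pdgfrb, Cspg4, Ogn, Foxj1, Pmp22 and Alas2 were not called (edgeR adjusted p 0.0609 to 0.155). Without C the same held for Egfl7, Cspg4, Ogn, Pmp22 and Alas2 (0.0514 to 0.132), without M for Cspg4 and Ogn (0.0523 and 0.0878), and without the replicate block for Pdgfrb (0.06). The 3 mural falls were 0 without L and 1 without C and without the block, and the 4 meningeal falls were 1 without C, without L and with the GC correction. With that correction Ogn (0.172) and Alas2 (0.114) were not called.

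**Figure D3:**
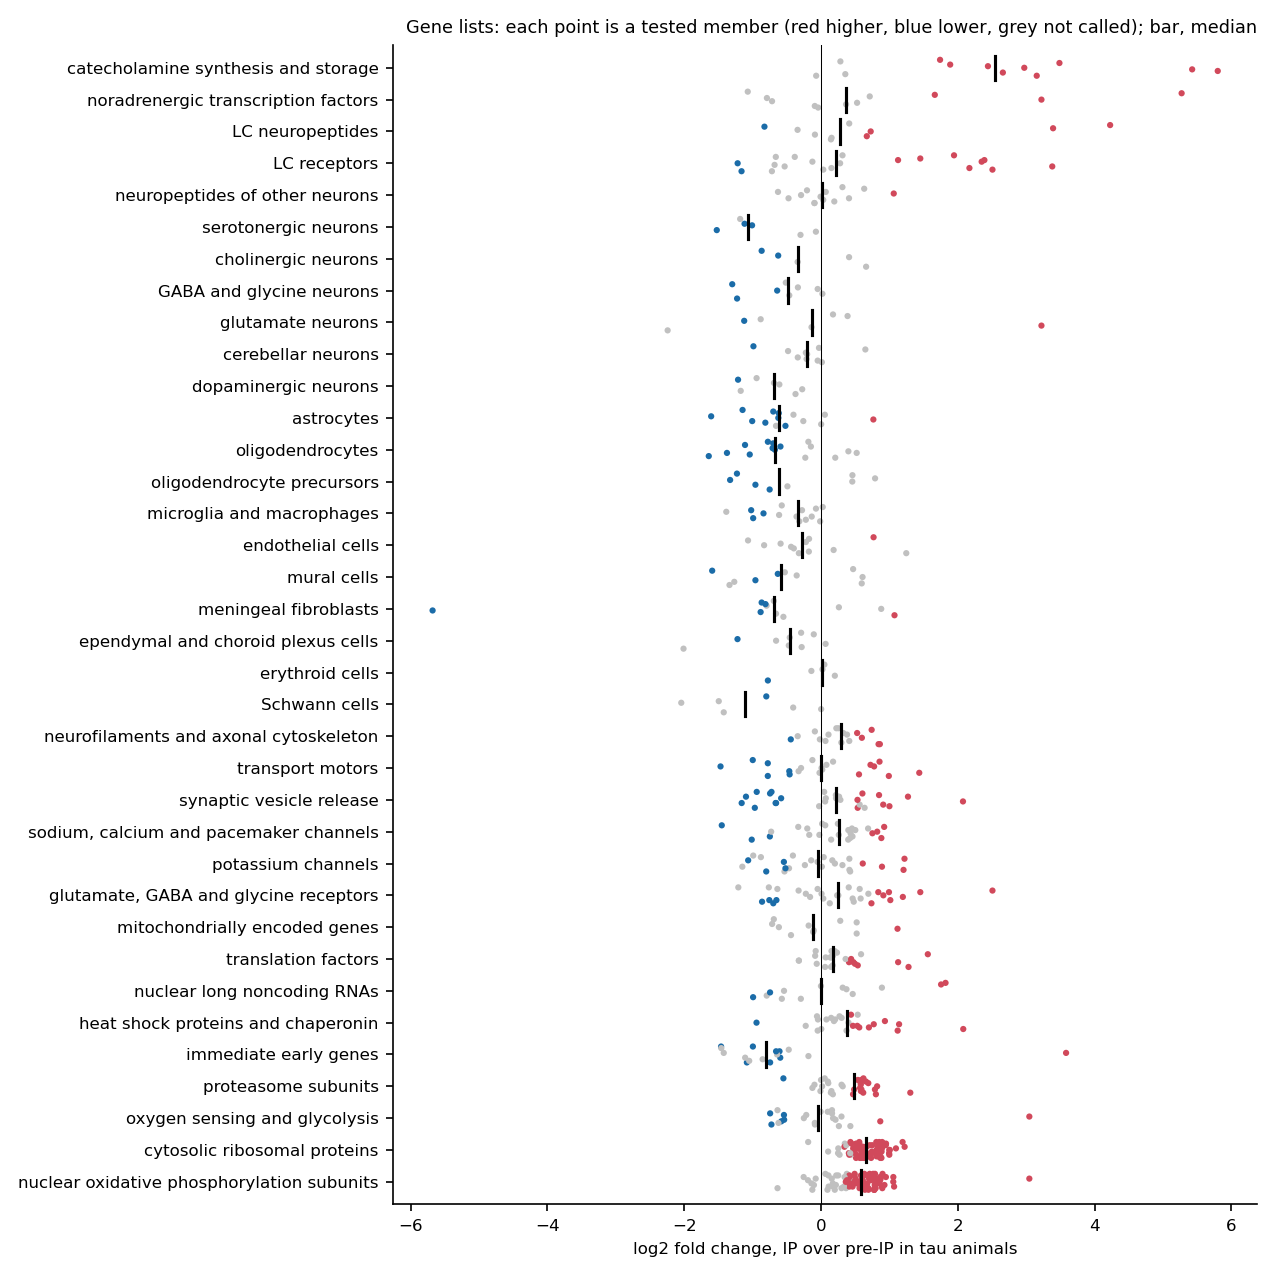
Log2 fold change of IP over pre-IP in tau animals for each tested member of each gene list, 1 row per list, with called members in red (higher) or blue (lower) and the median as a bar. Catecholamine genes have the highest median (2.55), and the medians of the astrocyte, oligodendrocyte and precursor lists lie between -0.62 and -0.67.

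The 15 largest falls among well expressed genes were smaller than the rises, from -1.77 (Dll1) to -2.22 (Nfatc1). They included Notch1 (a receptor) and its ligand Dll1, Plxnb3 (a plexin), Oprd1 (the delta opioid receptor) and Atp2a3 (a calcium pump). Spg11, Tubgcp6 (of the gamma-tubulin complex) and Ptpru (a receptor phosphatase) were also among them. The fall of Dll1 was uneven, with log2 differences of -3.39, -1.52, -0.48 and -1.76 in B, C, L and M. Notch1 had 9.95, 9.14, 12.2 and 14.2 CPM in the pre-IP of B, C, L and M and 1.23, 1.91, 2.46 and 6.78 CPM in the IP, a fall of 2.17 (SE 0.33, edgeR adjusted p 0.00538). Plxnb3 had 34.0, 34.5, 56.97 and 63.9 CPM in pre-IP and 8.02, 10.5, 14.5 and 22.5 CPM in IP, a fall of 1.84 (SE 0.16, edgeR adjusted p 0.00316). Neither gene overlapped between fractions. Both also fell in the EYFP animals, Notch1 by 0.94 and Plxnb3 by 0.88 (edgeR adjusted p 0.00094 and 0.00049). For Nfatc1, a transcription factor, the IP of B had 0.1254 CPM against 2.18 to 3.43 CPM in the other 3, and its fall (SE 0.67, edgeR adjusted p 0.0489) was not called without the replicate block or without C, L or M (edgeR adjusted p 0.0639 and 0.0788 to 0.145).

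At any level, the 3 largest falls were genes with 0 counts in all 4 IP libraries. Against a limit of 3 counts per library, Pdcd1 (an inhibitory receptor of T cells) was at least 10.7-fold lower, Tlr9 (a receptor for DNA in endosomes) at least 7.47-fold and Acp3 (an acid phosphatase) at least 6.19-fold. Their pre-IP levels were low, 0.621 ± 0.459 CPM for Pdcd1 (SD, n = 4) and less for the others. The bound of Pdcd1 leaned on animal B, whose pre-IP had 62 counts against 16, 18 and 36 in C, L and M. Without L none of the 3 was called (edgeR adjusted p 0.0647 to 0.103), without C Tlr9 and Acp3 were not (0.0587 and 0.0726), and without M Acp3 was not (0.0521).

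Genes of axons, motors and synapses moved in both directions. Of 17 genes of neurofilaments and the axonal cytoskeleton 5 rose and 1 fell (background 10.7% and 12.4%), with a median of 0.30. Gap43 and Stmn2, both linked to axon growth, rose by 0.86 and 0.84, and the neurofilament gene Nefh by 0.74. Without C and without L, 0 of these rises were called, and with the GC correction 9 were. Of 20 transport motor genes 6 rose and 6 fell, against 3 and 2 without L and 5 and 3 with the GC correction. Kif5a, a neuronal kinesin, had 1289, 1401, 1926 and 2209 CPM in the pre-IP of B, C, L and M and 363, 506, 832 and 907 CPM in the IP, a fall of 1.47 (SE 0.13, edgeR adjusted p 0.00323). Its paralog Kif5b had 77.8, 61.6, 56.5 and 61.3 CPM in pre-IP and 136, 178, 208 and 186 CPM in IP, a rise of 1.44 (SE 0.19, edgeR adjusted p 0.0038). Both kinesins were without overlap and moved in opposite directions in each of the 4 animals.

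Of 27 synaptic vesicle genes 8 rose and 9 fell, where 10.7% of all genes tested were called higher and 12.4% lower. Without L 2 were called higher and 8 lower, and without C 4 and 7. The synuclein gene Sncg, expressed in locus coeruleus neurons, rose by 2.08 and had 242, 187, 201 and 236 CPM in the pre-IP of B, C, L and M and 2193, 994, 776 and 416 CPM in the IP. Without L, Sncg was just short of a call (edgeR adjusted p 0.05). Unc13a, of vesicle priming, fell by 1.16. Of 25 sodium, calcium and pacemaker channel genes 4 rose and 3 fell, with Cacna1h (a T-type calcium channel, -1.45) and Scn4b (-1.01) the largest falls and Scn3a (0.92) the largest rise. Without C and without L 0 were called higher, against 2 without the replicate block, 7 without B and 8 by DESeq2's Wald test. Of 25 potassium channel genes 4 rose and 4 fell, shares near those over all genes, and without C and without L 2 were called higher and 1 lower, without M 2 higher, and without the replicate block 1 lower. Of 30 receptor genes for glutamate, GABA and glycine 8 rose and 4 fell. Without C 2 of these were called higher and 1 lower, without L 2 and 2, with the GC correction 4 and 2, and by DESeq2's Wald test 12 and 7. Mouse Mapt, the endogenous tau gene, did not pass, at 0.07 (SE 0.13, edgeR adjusted p 0.751), and had 0.29 with the GC correction (SE 0.12, adjusted p 0.139).

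Genes of protein synthesis and respiration rose as large groups by small amounts. Of 80 cytosolic ribosomal protein genes 71 were called higher and 0 lower (background 10.7% and 12.4%), with a median of 0.66. Rpl38 had 172, 151, 155 and 138 CPM in the pre-IP of B, C, L and M and 628, 343, 293 and 279 CPM in the IP, a rise of 1.22 (SE 0.17, edgeR adjusted p 0.00424) without overlap. Rpl10a rose by 0.66 (SE 0.14, edgeR adjusted p 0.0138), was not called without C (edgeR adjusted p 0.0774), and its counts cannot be split between the endogenous gene and the transgene. Of 87 nuclear genes of oxidative phosphorylation 61 rose and 0 fell, with a median of 0.58, led by Ndufa4l2 (3.05), which is induced by low oxygen. Of 31 proteasome genes 17 rose and 1 fell (Psmd2), and of 27 translation factors 8 rose and 0 fell, led by Eif2s2 (1.56). Of 22 genes of oxygen sensing and glycolysis 2 rose, Ndufa4l2 and Ldha (0.87), and 5 fell, among them Vegfa (-0.74) and Epas1 (-0.73), but after correction for GC content 5 were called higher and 1 lower, without C or without L 1 and 0, and without M 2 and 1. In the EYFP animals (n = 3) the called rises were 24 ribosomal, 10 oxidative phosphorylation, 10 proteasome and 8 translation factor genes. There 8.89% of all genes tested were called higher. The medians of these 4 lists were 0.40, 0.32, 0.36 and 0.16 in EYFP animals, beside 0.66, 0.58, 0.48 and 0.17 in tau animals. Without C the tau counts were 34, 30, 6 and 3, and without L they were 57, 45, 7 and 3. Without M 4 translation factors were called higher.

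Of 25 heat shock and chaperonin genes 10 rose and 1 fell (background 10.7% and 12.4%). Hsp90aa1, an inducible HSP90, had 279.6, 247, 141 and 162 CPM in the pre-IP of B, C, L and M and 1027, 1075, 779.8 and 622 CPM in the IP, a rise of 2.08 (SE 0.14, edgeR adjusted p 0.00188). The inducible Hspa1a and Hspa1b had -0.05 each. Without C 4 and without L 2 of the 10 rises were called. Of 16 immediate early genes 7 fell, led by Egr1 (-1.46), and 1 rose, Nr4a3 (3.58, SE 0.59, edgeR adjusted p 0.00642), where 12.4% of all genes tested were called lower. Without L 3 of the 16 were called lower, and without C and without M 4. Nr4a3 had 0.618, 1.69, 0.626 and 0.804 CPM in the pre-IP of B, C, L and M and 29.5, 19.5, 8.57 and 2.31 CPM in the IP. Of 13 nuclear long noncoding RNAs 2 rose and 2 fell. Malat1, which is retained in the nucleus, had 134, 115, 72.8 and 71.2 CPM in pre-IP and 198, 649, 377 and 260.0 CPM in IP, a rise of 1.82 (SE 0.31, edgeR adjusted p 0.00723), and Peg13 fell by 0.99. Without L, Malat1 and Nr4a3 were not called (edgeR adjusted p 0.06 and 0.0555). Of the 11 tested mitochondrially encoded genes 1 rose (mt-Nd6, 1.12) and 0 fell. Their median log2 difference was -1.68 in B and 0.001, 0.578 and 0.756 in C, L and M. Without B 5 of the long noncoding RNAs and 4 of the mitochondrial genes were called higher, and without C, L or M 0 of the mitochondrial genes were.

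Changes also went with the base composition and length of transcripts, properties that the choice of libraries did not use. Protein coding genes were divided into quintiles of the GC content of their longest transcript. In the lowest quintile (31.0% to 44.1% GC) 26.9% of genes were called higher and 1.33% lower, with a median log2 fold change of 0.37, and in the highest (55.8% to 74.2%) 6.32% were called higher and 24.8% lower, with a median of -0.35. All 4 tau animals had this order of lowest above highest, with medians of 0.19, 0.26, 0.71 and 0.43 in the lowest quintile and -0.32, -0.26, -0.37 and -0.21 in the highest for B, C, L and M. The EYFP animals had fitted medians of 0.33 and -0.15. In the shortest quintile of genes 19.4% were called higher and 2.49% lower, with a median of 0.11. The order with length was not steady. In quintile 4 the shares were 8.85% and 22.4%, with a median of -0.24. The longest quintile had 13.6% and 18.15%, with a median of -0.07. The ribosomal protein and oxidative phosphorylation lists, whose median GC lies near the middle, had medians of 0.79 and 0.67 with the GC correction, and the catecholamine list 2.32. The receptor list for glutamate, GABA and glycine, with a median GC of 44.2%, went from 0.24 to -0.06, and the mitochondrially encoded genes went from -0.11 to -0.68, with 0 called higher and 1 lower.

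**Figure D4:**
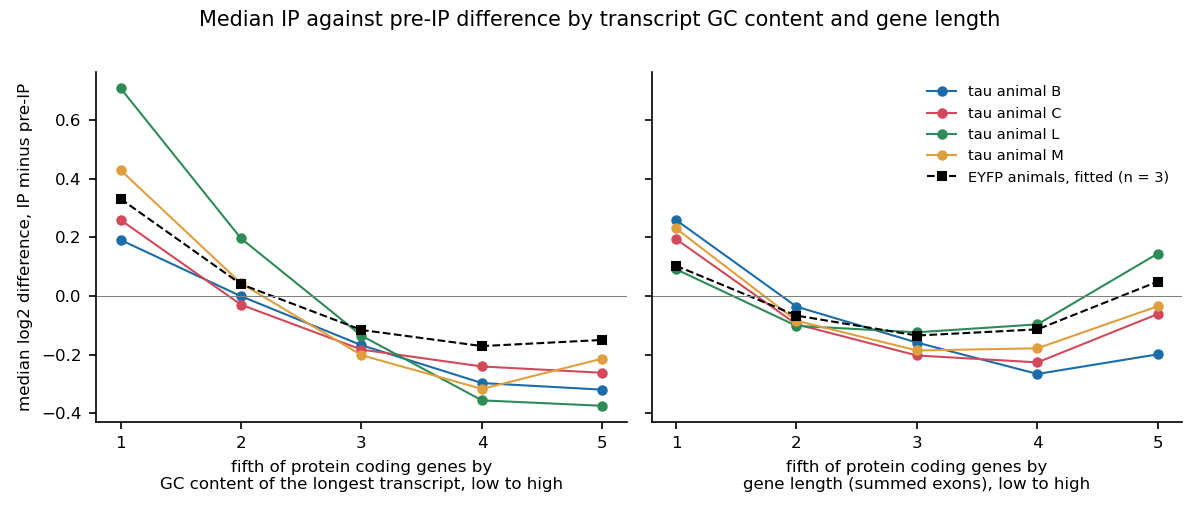
Median log2 difference of IP minus pre-IP by quintile of transcript GC content (left) and gene length (right) among protein coding genes, with 1 line for each tau animal and a dashed line for the fitted value of the EYFP animals. In all lines the lowest GC quintile lies above 0 and the highest below 0.

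The same fit in the EYFP animals, which share no library with the tau animals and had RNA integrity scores of 7.7 to 9 except for 4.2 in the IP of I, called 3227 of 19105 genes (16.9%), 1699 higher (8.89%) and 1528 lower (8%), against 2126 genes without I. Of the genes called higher in tau animals 859 were also called higher in EYFP animals, 42.3% of the tau list and 50.6% of the EYFP list. For falls the shared genes were 1090, 46.2% and 71.3%. Over 18528 genes tested in both, Pearson's r between the log2 fold changes was 0.558, a description across genes that are not independent and that share GC content and length. Of the genes called higher in tau animals and tested in both, 1882 of 2011 had a positive value in EYFP animals.

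The noradrenergic genes had smaller values in EYFP animals. Beside the tau values above, the fitted EYFP log2 fold changes were 1.48 for Dbh, 0.84 for Th, 1.55 for Slc6a2, 0.62 for Slc18a2, 0.90 for Gal and 1.09 for Phox2a, of which all but Phox2a passed (edgeR adjusted p 0.145). Of the 12 catecholamine genes 5 were called in EYFP animals. Cyb561, at 1.89 in tau animals, had 0.00, and Hcrtr1 had -0.07. Other genes had similar values: Hsp90aa1 had 2.29, Malat1 2.00 and Kif5b 1.87 in EYFP animals. Among the immunoglobulin genes, Ighg3 had 3.33 in tau and 3.26 in EYFP animals, Ighv1-72 had 4.57 and 4.93, and Ighg2b had 2.82 and 2.35. Ighv1-74 had 4.32 and 2.01, a difference that did not pass in edgeR (adjusted p 0.531) and passed by DESeq2's Wald test (0.0314). Ighg2b had 38.2, 9.59, 1.67 and 3.90 CPM in the pre-IP of B, C, L and M and 284, 54.6, 12.5 and 33.1 CPM in the IP, so that it rose in each animal while the groups overlapped. Reads of such segments may be shared between near-identical family members, and their values are uncertain.

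The difference between the treatments was tested as an interaction over all 14 libraries. Of 20495 genes 0 (0%) had an edgeR adjusted p under 0.05, with 1744 at an unadjusted p under 0.05 and 0.333 as the smallest adjusted p. The smallest p-values for a larger rise in tau animals were those of Shisal2b (difference of 4.06, SE 0.57, adjusted p 0.333) and Gal (3.36, SE 0.52, adjusted p 0.381), both by edgeR and both higher in each of the 4 tau animals than in each EYFP animal. DESeq2's Wald test called 78 genes, 70 of them higher in tau animals, Dbh, Th, Slc6a2, Slc18a2, Gal and Phox2a included. Without animal M edgeR called 68 genes, all higher in tau animals and again including these 6, and without B it called 2, Shisal2b and Gal. Without C, L, H, I or K it called 0. Whether the enrichment differed between the treatments thus depended on the test and on animal M.

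**Figure D5:**
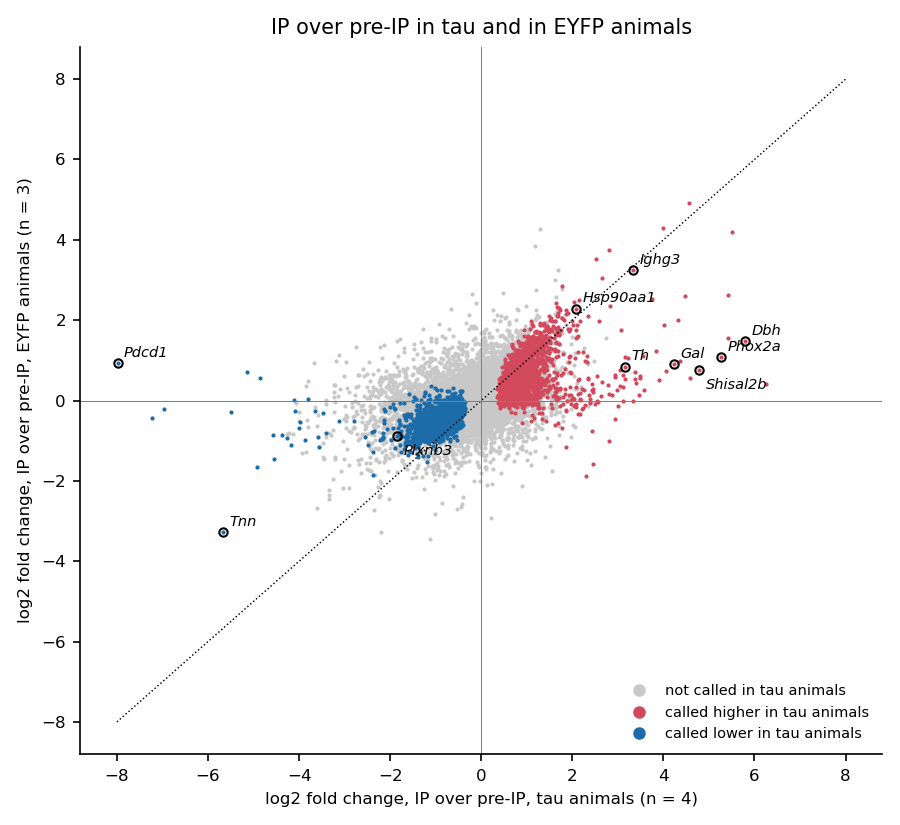
Log2 fold change of IP over pre-IP in EYFP animals (n = 3) against that in tau animals (n = 4), 1 point for each gene tested in both, coloured by the call in tau animals, with equality as a dotted line. Noradrenergic genes such as Dbh (5.80 and 1.48) lie below the line, and Hsp90aa1 (2.08 and 2.29) and Ighg3 (3.33 and 3.26) lie close to it. The fitted tau value of Pdcd1 comes from 0 counts in IP.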

How the data were processed

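RNA was measured in 14 mouse brainstem libraries, made per the labels' protocols with SMART-Seq v4 and Nextera XT kits. The authors deposited raw counts (whole numbers, no normalization) of 55421 mouse genes and 1 human tau construct in every library. The submitters' processing notes name FastQC, Trim Galore, STAR and featureCounts and the builds GRCm38 and mm10, with no versions. Strand use and the handling of mates are not given in the sources used here. Between 74.5% and 78.4% of counts from 1 to 20 were even. The deposited sample sheet gives RNA concentration and, per the file headers, a RNA integrity score (7.7 to 9 in 13 libraries and 4.2 in the EYFP IP of I) and the percent GC of the reads. Columns of counts were read by position, as 2 empty cells shift their header, and the tau construct counts then equalled those of the sheet in 14 of 14 libraries.

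The tau IP and pre-IP libraries were compared with edgeR 4.0.16 (quasi-likelihood F test, R 4.3.3) with animal as block, filterByExpr, TMM scaling, Benjamini-Hochberg adjustment and a threshold of 0.05. The block rests on both libraries of a letter coming from 1 animal, and their deviations from the group means correlated at 0.149 to 0.298 in tau animals. SE is the log2 fold change over the square root of F. Levels were scaled over all 14 libraries. The 6 EYFP libraries were fitted alone in the same way, and the interaction over 14. Each fit was tested on simulated data that held no animal effects, with 200 genes changed. At a log2 change of 1 the tau fit recovered 48%, the EYFP fit 74% and the interaction 13.5%. False calls were 5.88%, 10.8% and 0% of all calls. At a log2 change of 2 the fits recovered 77%, 94% and 70%, so the interaction could miss most differences of 2-fold. Within the tau groups Pearson's r of log2 CPM was 0.911 to 0.964 in IP and 0.977 to 0.987 in pre-IP, and no pair of libraries agreed within sampling noise (lowest chi-square per degree of freedom 26.9).

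The members, lists and rules were chosen with earlier results of these data known. Named were the markers, list members, and, among called genes with 4 of 4 animals in 1 direction, average log2 CPM of at least 2 and a regular symbol, the 15 largest rises and falls, the 3 largest at any level and the 5 smallest interaction p-values in each direction. The genes past the 2-fold test, the ATTA motif and Ighg2b were added after their values were seen. Gene positions equalled GENCODE M21 for 50973 genes, and GC content came from its longest transcripts (99.9% of tested genes). Other settings were no block, DESeq2 1.42.0 (size factors, Wald test), limma 3.58.1 voom, library totals, no filter, a mean of at least 50 counts, all 14 libraries, glmTreat, each animal left out, prior count 0.5 and, added later, a GC correction in 20 bins. Some members of the lists are counted but not reported here by name.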

Additional observations from a re-analysis of the deposited data

Results flagged for a closer look

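Of 200 groups of 4 tau libraries checked for the genes named, 10 held 1 library whose gap to its nearest neighbour passed Dixon's critical value at 95%, where chance gives about 1 in 20. In the IP of animal B, Ighv1-72 had 47.7 CPM against 0.156 to 2.72 in the other tau IP libraries, Ighg2b 284 against 12.5 to 54.6, Psmb1 960.5 against 566 to 615 and Rpl22l1 150.5 against 53.8 to 66.1. The IP of C had 446 CPM of Mapt against 292 to 313, and the IP of M had 113 CPM of Hsp90b1 against 162 to 172. Among pre-IP libraries, M had 16.3 CPM of Chat against 9.70 to 9.82 and 203 CPM of Sox10 against 152 to 159, B had 3.38 CPM of Ogn against 1.84 to 2.03, and C had 0.0376 CPM of Apol10a against 0 in the others.

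Pdcd1 had differences of opposite sign in the 2 treatments, of which the EYFP value did not pass (0.94, edgeR adjusted p 0.263). It had 0 counts in every tau IP library, with a fitted log2 fold change of -7.98 that is no measure of its size, and per-animal differences of 0.78 to 0.95 in the EYFP animals. The interaction did not pass in edgeR (adjusted p 0.381), and DESeq2's Wald test gave an adjusted p of 0.000193.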

How the results depend on the processing

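The count of 4387 genes stayed within 1.5 times under no replicate block (3916, with 3644 genes called in both fits), DESeq2 size factors (4396), library totals (4138), no filter (4612), a mean of at least 50 counts (4791), DESeq2's Wald test (5998), voom (5034), all 14 libraries (5795) and the GC correction (3356, with 2645 in both). It was 15 against a 2-fold change, a different question, and 1425 to 5013 with 1 animal left out, lowest without L and C. The EYFP count of 3227 was 1218 without the replicate block and 2126 to 2419 with 1 animal left out. The interaction count of 0 was 78 by DESeq2's Wald test, 0 without the replicate block (1223 genes at an unadjusted p under 0.05) and 0 to 68 with 1 animal left out. The mean difference of the 6 markers, 4.52, was 4.03 to 5.18 with 1 animal left out.

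Of 100 named genes 98 were called, and 59 of these were called in all other settings except glmTreat. Called genes lost were 33 without L, 23 without C, 10 without M, 11 without the replicate block, 10 with the GC correction, 4 with library totals, and 1 each with no filter and with all 14 libraries. Mapt, not called, had 0.07, reversed to -0.04 without animal C (edgeR adjusted p 0.896) and had 0.131 without B and 0.293 with the GC correction. The cause of these shifts was not tested. In genes at 0, depth limits a fall to a bound.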

Other observations

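Among biotypes, processed pseudogenes had a median log2 fold change of 0.53 in tau animals, with 40 of 650 called higher and 0 lower, and 0.31 in EYFP animals. Reads of these copies and of their parent genes cannot be told apart here. Of 855 long intergenic RNAs 51 were called higher and 14 lower, with a median of -0.02.

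Besides Shisal2b and Gal, the smallest interaction p-values for a larger rise in tau animals were those of Calcr, Eya2 and 1700012B09Rik. Eya2, a transcriptional coactivator, had per-animal log2 differences of 1.09 to 3.19 in tau and -0.68 to 0.28 in EYFP animals. In the other direction these were Pdcd1, Plxnb3, Rab11fip4os1, Slc27a2 and Esr2. Slc27a2, a fatty acid transporter, had -1.75 to -0.64 in tau and 0.08 to 0.64 in EYFP animals, and Esr2, an oestrogen receptor, had at most 2 counts in a tau IP library against up to 55 in an EYFP IP library. Rab11fip4os1 is an antisense gene, whose reads cannot be told apart from those of its partner without strand. None of these passed the threshold in the main edgeR fit (adjusted p 0.333 to 0.531). All of them passed by DESeq2's Wald test, and Shisal2b, Gal, Calcr, Eya2 and 1700012B09Rik also passed in edgeR without M.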
